A study of Mus musculus with 8 samples.

Results

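Interleukin-10 and its receptor were followed through 3 genes, Il10, Il10ra and Il10rb, of the 18193 genes measured. They were taken by gene symbol and had 6 of the 34945 probe sets with a single symbol: 1 for Il10, 3 for Il10ra and 2 for Il10rb. Expression had been measured on 8 single-channel arrays in CD11b+ cells, that is, cells carrying the integrin subunit found on monocytes, macrophages and neutrophils among others. The 4 groups were NOD.Idd3 cells with peptidoglycan (PGN, a polymer of the bacterial cell wall), NOD.Idd3 cells in medium alone, NOD cells with PGN and NOD cells in medium alone, with 2 arrays each. PGN was given at 5 µg/ml for 4 h at 37 °C, and the unstimulated cells were kept at the same temperature. NOD mice develop autoimmune diabetes spontaneously, and NOD.Idd3 is a congenic NOD strain with another allele at the diabetes locus Idd3 on chromosome 3, so both strains share the NOD background. The sources used here give neither the age and sex of the mice, nor the tissue, nor the donor and length of the Idd3 segment. None of the 3 genes lies on chromosome 3: RefSeq places Il10 on chromosome 1, Il10ra on chromosome 9 and Il10rb on chromosome 16.

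Interleukin-10 is a secreted cytokine that limits inflammatory gene expression, and macrophages stimulated through pattern recognition receptors are a known source of it. It binds a receptor made of the ligand-binding chain encoded by Il10ra and the accessory chain encoded by Il10rb, which the receptors for IL-22 and interferon lambda also use. The kinases JAK1 and TYK2 are attached to these chains, and STAT3 is the main transcription factor they activate in macrophages, where it raises Socs3 and other genes.

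PGN raised Il10 by about the same fold in both strains, while neither receptor gene passed in either strain on its brightest probe set. On the linear scale of the deposited intensities, Il10 had 5722 and 6079 in NOD.Idd3 cells with PGN, against 85.1 and 50.1 in unstimulated NOD.Idd3 cells. It had 5787 and 7827 in NOD cells with PGN, against 109 and 48.1 in unstimulated NOD cells. The 4 PGN arrays were all far above the 4 unstimulated arrays, and the ranges of the strains overlapped within each condition. On the log2 scale the increase was 6.50 ± 0.40 in NOD.Idd3 (SE, 2 arrays per group, limma adjusted p = 0.000374), which is 90.3-fold with a 95% interval of 48.1-fold to 169.5-fold. In NOD it was 6.54 ± 0.40 (limma adjusted p = 0.000355), or 92.9-fold with an interval of 49.5-fold to 174.3-fold. At an adjusted p under 0.05, 3.14% of all genes passed in NOD.Idd3 (1.89% higher and 1.25% lower) and 3.94% in NOD (1.81% higher and 2.13% lower). With the replicate number as a block, 6.63% passed in NOD.Idd3 and 8.72% in NOD. Il10 had the third largest increase in each strain (rank 3 of 18193).

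**Figure D1:**
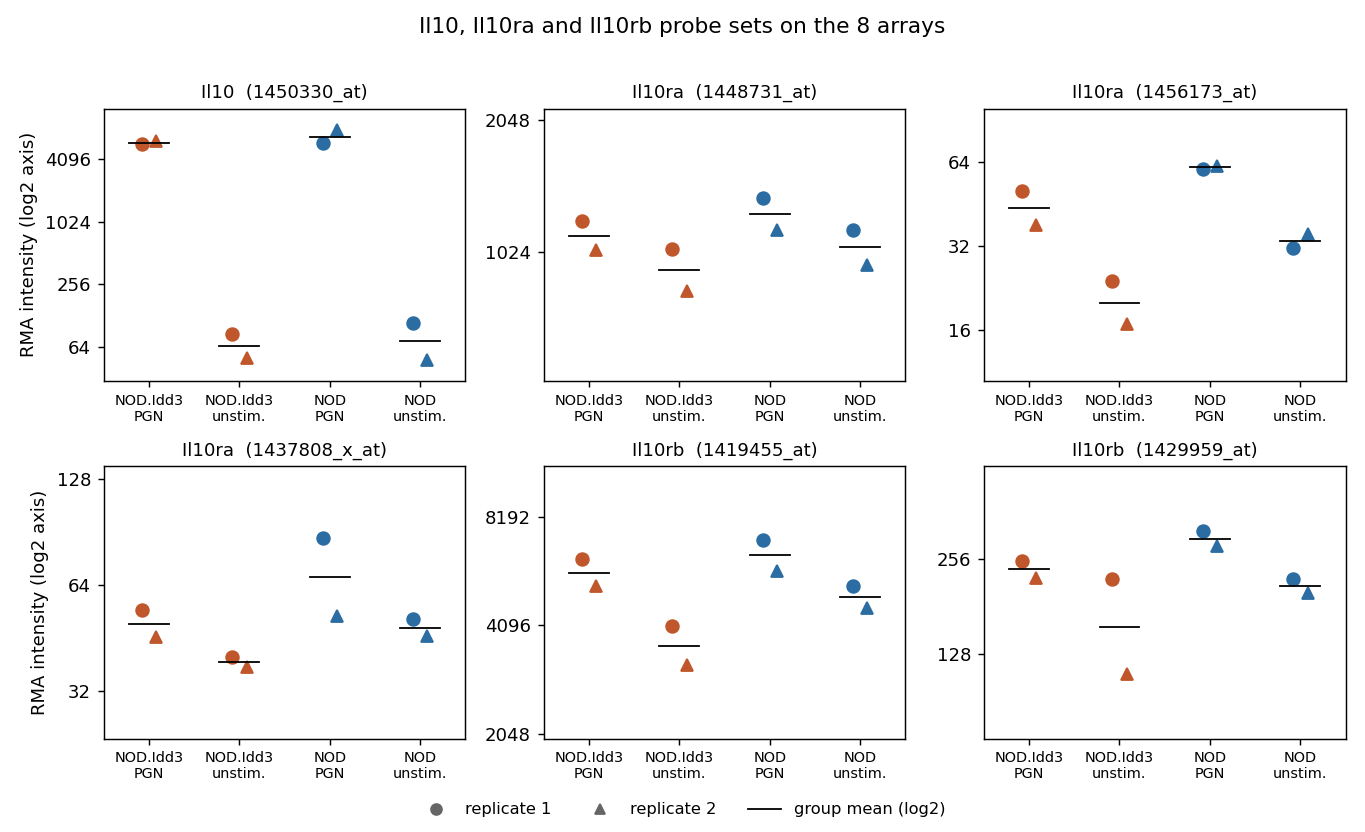
Intensity of each probe set of Il10, Il10ra and Il10rb on the 8 arrays, on a log2 axis, with a circle for replicate 1, a triangle for replicate 2 and a line at the group's log2 mean. Il10 stands between 5722 and 7827 on the PGN arrays and between 48.1 and 109 on the unstimulated arrays.

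The size of these folds rests on a low unstimulated intensity. Unstimulated Il10 stood at the 46.9 and 54.4 percentiles of the single-symbol probe sets in NOD.Idd3 and at the 45.8 and 58.8 percentiles in NOD, in the middle of the array's distribution, where the array medians were 42.8 to 45.2. The table holds no detection call, so unstimulated Il10 is not shown to lie above background, and the folds and ranks describe the deposited intensities and may understate the change in RNA. With PGN it stood at the 97.4 and 97.9 percentiles in NOD.Idd3 and the 97.4 and 98.5 percentiles in NOD. The SD of the log2 values was 0.06 in NOD.Idd3 with PGN against 0.54 unstimulated, and 0.31 in NOD with PGN against 0.83 unstimulated (n = 2 each). Within replicate 1 the increase was 67.2-fold in NOD.Idd3 and 53.1-fold in NOD, and within replicate 2 it was 121-fold and 163-fold. The unstimulated value was higher in replicate 1 than in replicate 2 in both strains, and the PGN value was lower.

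A difference between the strains in the increase of Il10 was not detectable with 2 arrays per group. The difference in the log2 increase (NOD.Idd3 minus NOD) was -0.04 ± 0.56, with a 95% interval of -1.32 to 1.24, so a ratio of the folds between 0.40 and 2.37 was within the error. The difference was 0.34 within replicate 1 and -0.42 within replicate 2. With PGN, Il10 was at 0.88 of the NOD level in NOD.Idd3 (log2 difference -0.19 ± 0.40, interval -1.10 to 0.72), and unstimulated it was at 0.90 (-0.15 ± 0.40, interval -1.06 to 0.76). None of these passed in limma. For the difference in response 0 of the 18193 genes passed (0%), with 314 at an unadjusted p under 0.05, and 0 passed for either strain difference, with 984 under 0.05 with PGN and 611 unstimulated.

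Il10ra encodes the chain that binds IL-10, and its brightest probe set changed little. It had 1205 and 1040 in NOD.Idd3 cells with PGN, against 1042 and 836 in unstimulated NOD.Idd3 cells. It had 1361 and 1153 in NOD cells with PGN, against 1152 and 960 in unstimulated NOD cells. PGN and unstimulated arrays overlapped in NOD.Idd3 by a narrow margin and in NOD the lower PGN array was level with the higher unstimulated one. The log2 difference with PGN was 0.26 ± 0.22 in NOD.Idd3 (interval -0.25 to 0.77) and 0.25 ± 0.22 in NOD (interval -0.26 to 0.76), and neither passed (limma adjusted p = 0.70 and 0.595). Averaged over strains it was 0.26 ± 0.16 (adjusted p = 0.359), in a comparison in which 11.3% of all genes passed, 4.86% higher and 6.4% lower. A change above 1.53-fold in the average lies outside its 95% interval.

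A dim probe set of Il10ra gave a larger difference. The second probe set had 50.3 and 38.0 in NOD.Idd3 with PGN, against 24.0 and 16.9 unstimulated. In NOD it had 60.4 and 62.0 with PGN, against 31.5 and 35.4 unstimulated. The groups with and without PGN did not overlap on it, but the share of all probe sets so separated was not counted. When every single-symbol probe set was tested, its averaged increase was 1.00 ± 0.17 on the log2 scale (limma adjusted p = 0.00773, with 11.3% of probe sets called), with 1.12 ± 0.25 in NOD.Idd3 (adjusted p = 0.0487, with 3.03% of probe sets called) and 0.87 ± 0.25 in NOD (adjusted p = 0.0913, with 4.01% called). The third probe set ranged from 37.5 to 86.7 and gave 0.42 ± 0.19 (adjusted p = 0.205). With the mean of all 3 probe sets the averaged difference of Il10ra was 0.56 and passed (adjusted p = 0.0413), so the call for this gene depends on the probe set. The deposited annotation does not say which part of the transcript each one targets.

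Il10rb encodes the shared accessory chain and had higher values with PGN than without it within each strain. It had 6238 and 5270 in NOD.Idd3 cells with PGN, against 4075 and 3183 in unstimulated NOD.Idd3 cells. It had 7070 and 5802 in NOD cells with PGN, against 5270 and 4576 in unstimulated NOD cells. The 2 conditions did not overlap within either strain. With 2 arrays against 2 this says little, and the share of all genes separated in this way was not counted. The lowest PGN array, in NOD.Idd3, was level with the highest unstimulated array, in NOD. The log2 difference was 0.67 ± 0.23 in NOD.Idd3 (adjusted p = 0.186) and 0.38 ± 0.23 in NOD (adjusted p = 0.41), and 0.53 ± 0.16 averaged over strains (1.44-fold, interval 1.12-fold to 1.86-fold, limma adjusted p = 0.0739). With the replicate number as a block the averaged value passed (adjusted p = 0.0242), in a fit in which 16.9% of all genes passed, and it also passed with a variance trend (adjusted p = 0.0328). The second probe set of Il10rb had 252 and 222 in NOD.Idd3 with PGN, against 220 and 111 unstimulated, and 313 and 280 in NOD with PGN, against 220.0 and 200 unstimulated. Its averaged difference was 0.55 ± 0.22 (adjusted p = 0.158 over probe sets), close to that of the first.

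**Figure D2:**
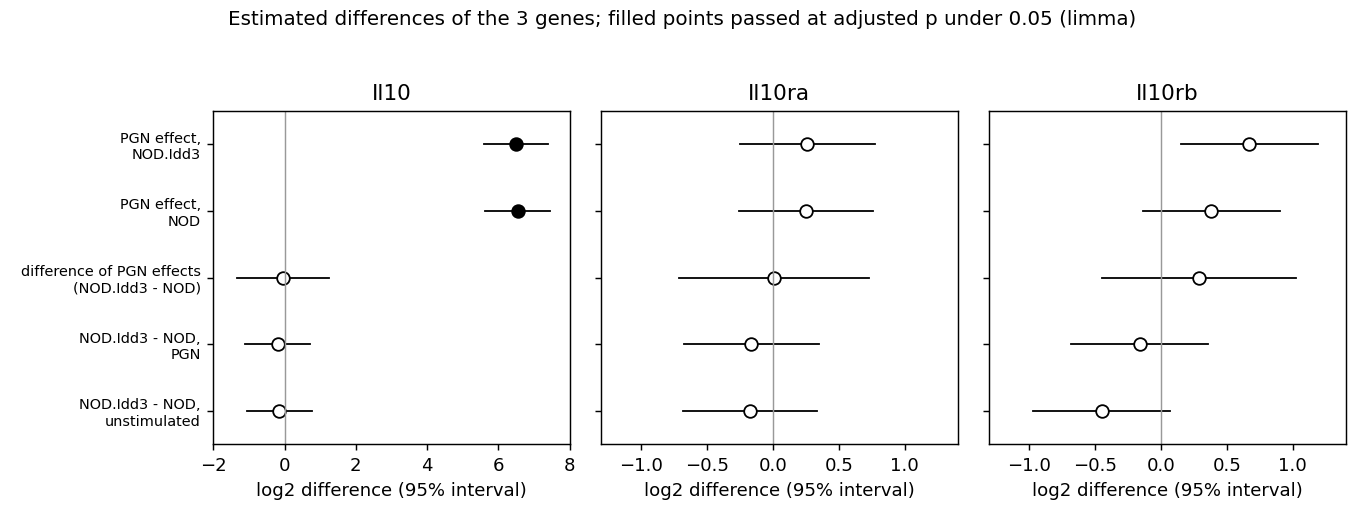
Log2 differences of Il10, Il10ra and Il10rb with 95% intervals from limma, for PGN against unstimulated cells in each strain, for the difference between these effects, and for NOD.Idd3 against NOD in each condition. Filled points passed at an adjusted p under 0.05. The axis of Il10 is wider than those of the receptor genes, whose differences all lie between -0.45 and 0.67.

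The 4 groups kept the same order of log2 means for each of the 3 genes. From the highest it was NOD with PGN, NOD.Idd3 with PGN, unstimulated NOD and unstimulated NOD.Idd3. For Il10 these means were 12.72, 12.53, 6.18 and 6.03, and the one step larger than the spread was that between the conditions. For Il10ra they were 10.29, 10.13, 10.04 and 9.87, with overlapping arrays at each step. For Il10rb they were 12.64, 12.49, 12.26 and 11.81. Neighbouring groups did not overlap at the last step, between the strains without PGN. Nor did they at the step before it, where the gap was less than 1 unit of intensity. With 2 arrays per group such separation says little. The last step was -0.45 ± 0.23 (NOD.Idd3 minus NOD, interval -0.97 to 0.07) and did not pass in limma (adjusted p = 1). In Il10ra and Il10rb, on the probe sets used, replicate 1 was above replicate 2 in all 4 groups, by 0.20 to 0.36 on the log2 scale.

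Averaged over conditions, NOD.Idd3 minus NOD was -0.17 ± 0.28 for Il10, -0.17 ± 0.16 for Il10ra and -0.30 ± 0.16 for Il10rb, and none passed (adjusted p = 0.94, 0.903 and 0.822). In this comparison 0 genes passed (0%), with 1175 at an unadjusted p under 0.05, and 27 passed with the replicate block (0.148%), none of them these 3. Other measures moved with the strain in the same arrays. For the Gapdh controls, the log2 value of the 3' probe set minus that of the 5' one, a sign of RNA or labelling quality, was 0.72 to 0.80 on NOD.Idd3 arrays and 0.88 to 1.16 on NOD arrays. For the beta-actin controls it overlapped between the strains, at 0.22 to 0.46 on NOD.Idd3 arrays and 0.43 to 0.58 on NOD arrays. The summed intensity of 11 of 12 listed B cell markers was 1143 to 1984 with PGN and 1099 to 1836 unstimulated in NOD.Idd3, against 2369 to 5221 with PGN and 2476 to 6175 unstimulated in NOD. The summed intensity of 7 macrophage markers was 18800 to 21060 with PGN and 17020 to 17150 unstimulated in NOD.Idd3, against 24560 to 24710 with PGN and 20750 to 21320 unstimulated in NOD. The macrophage sum came mostly from Cd68 and Adgre1, with averaged log2 strain differences of -0.13 and -0.24. Mrc1, C1qa, C1qb, C1qc and Mertk differed by more: -1.56, -1.42, -1.37, -1.47 and -1.13. Their lowest adjusted p was 0.0656 (limma), also the lowest of all genes. None of these markers passed for the strain difference, and the intensities have no value of 0. The scavenger receptor gene Cd163, outside this list, differed by -1.91 ± 0.28 and did not pass (limma adjusted p = 0.156). The part of these in the small strain differences of Il10 and its receptor was not tested.

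The myeloid markers of CD11b+ cells were present. Itgam, which encodes CD11b itself, had log2 means of 8.55 with PGN and 8.88 unstimulated in NOD.Idd3. In NOD its means were 8.12 with PGN and 8.76 unstimulated. None of the 7 myeloid markers passed for the PGN effect averaged over strains, in which 4.86% of all genes rose and 6.4% fell. The marker calls below are from the same comparison and are to be read against these shares. Cell types that can make IL-10 besides macrophages were also looked for. The summed intensity of the 4 regulatory T cell markers was 325 to 488 with PGN and 133 to 175 unstimulated in NOD.Idd3, and 353 to 826 with PGN and 155 to 227 unstimulated in NOD. Il2ra alone among them passed (2.69 on the log2 scale), while Foxp3, which defines the cell type, differed by 0.22 (adjusted p = 0.471). The summed intensity of 7 of 9 listed T cell markers was 2196 to 2623 with PGN and 4573 to 5565 unstimulated in NOD.Idd3, and 1749 to 1952 with PGN and 3691 to 6377 unstimulated in NOD, with 1 fall, Cd3d. This sum came mostly from Cd3d, which differed by -1.48 on the log2 scale. Cd3e, Cd3g, Cd5, Cd4 and Cd8a differed by -0.18, -0.92, -0.33, -0.25 and -0.02. Cd247 differed by 0.96, and none of these others passed. Of the 11 B cell markers Cxcr5 rose. Markers that fell with PGN were Mmp8, Mmp9 and Cxcr2 among 7 neutrophil markers, Cx3cr1 among 2 monocyte markers, and Pf4 and Ppbp among 4 platelet markers. Sdc1 rose among 4 plasma cell markers, and no marker of macrophages, dendritic cells, NK cells, erythroid cells, basophils or mast cells passed. In RNA from a mixed population, more cells of a type and more RNA per cell cannot be told apart, and the part of these shifts in the increase of Il10 was not tested.

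The other measured cytokines of the IL-10 family stayed dim. Il20 and Il24, which lie beside Il10 on chromosome 1, were the only further members measured of the 7 listed. Il20 ranged from 9.02 to 14.6 over the 8 arrays and Il24 from 20.4 to 32.5, with overlapping conditions. Their averaged log2 differences with PGN were 0.04 ± 0.16 and 0.03 ± 0.18, and neither passed. On the other side of Il10, Mapkapk2 rose by 1.27 ± 0.16 averaged over strains (limma adjusted p = 0.00189). It encodes MK2, the kinase downstream of p38 that stabilises several cytokine messenger RNAs. Mapkapk2 had 3664 and 3103 in NOD.Idd3 with PGN, against 1542 and 1551 unstimulated, and 3761 and 4683 in NOD with PGN, against 1795 and 1377 unstimulated. The conditions did not overlap for Mapkapk2, but the share of all genes separated in this way was not counted. Dyrk3, the next gene, differed by 0.24 ± 0.15 and did not pass. Around Il10rb, Ifnar2 rose by 0.54 ± 0.15 (adjusted p = 0.0481), A930006K02Rik differed by 0.33 ± 0.26 and Ifnar1 by 0.36 ± 0.18, and Olig1 by -0.02 ± 0.18. The call of Ifnar2 was lost without any 1 of the 8 arrays (adjusted p of 0.0617 to 0.182). None of the neighbours of Il10ra, Scn4b, Tmprss4, Tmprss13 and Fxyd6, passed, with averaged differences of -0.13 to 0.22.

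**Figure D3:**
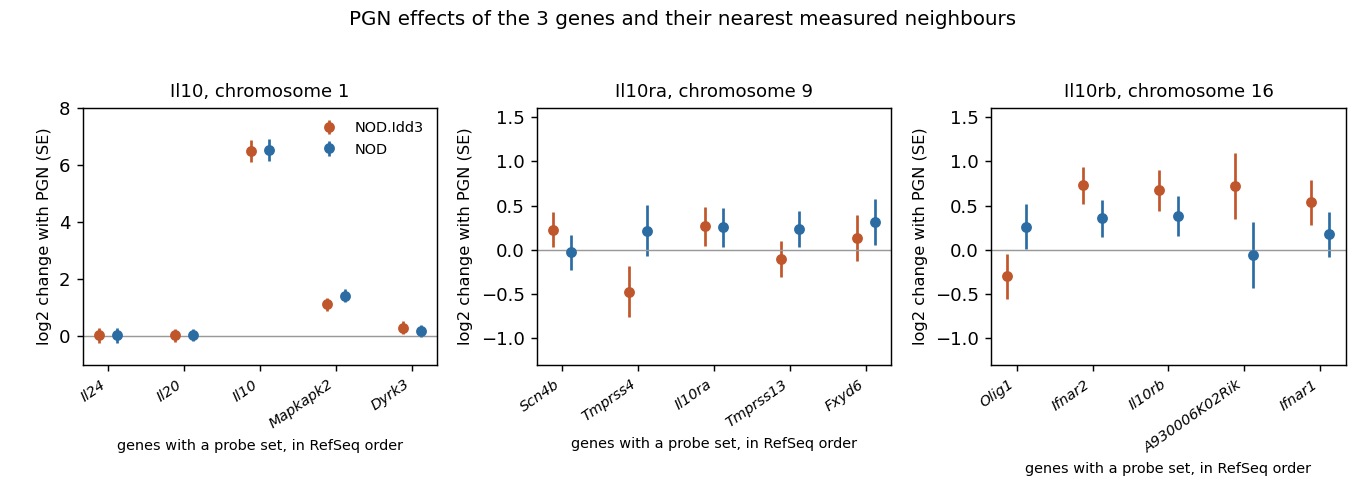
Log2 change with PGN (± SE) in NOD.Idd3 and NOD for Il10, Il10ra and Il10rb and the nearest 2 measured genes on each side, in RefSeq gene order. Il10 stands at 6.50 and 6.54 between Il20, near 0, and Mapkapk2, at 1.12 in NOD.Idd3 and 1.42 in NOD.

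Il10ra and Il10rb belong to the class II cytokine receptors, all 12 of which were measured. Of these, 2 rose, 1 fell and 9 did not pass for the averaged PGN effect, with a median log2 difference of 0.26 against 0.05 over all genes. Of all genes, 4.86% rose and 6.4% fell. F3, which encodes tissue factor, the starter of coagulation and a structural relative of these receptors, rose by 2.75 ± 0.28 (limma adjusted p = 0.000813). F3 had 173 and 66.2 in NOD.Idd3 with PGN, against 16.1 and 15.0 unstimulated, and 172 and 137 in NOD with PGN, against 25.2 and 21.4 unstimulated. The increase was 2.78 ± 0.39 in NOD.Idd3 and 2.73 ± 0.39 in NOD. The other increase was that of Ifnar2. Ifngr1, the ligand-binding chain of the interferon gamma receptor, fell by 0.96 ± 0.16 on the log2 scale (adjusted p = 0.007). It had 575 and 540 in NOD.Idd3 with PGN, against 923 and 966 unstimulated, and 449 and 329 in NOD with PGN, against 952 and 766 unstimulated. Ifngr2, its partner chain, differed by 0.12 ± 0.17. The interferon lambda receptor gene Ifnlr1, whose product pairs with the Il10rb chain, differed by 0.40 ± 0.16 (adjusted p = 0.149), and the IL-22 receptor genes Il22ra1 and Il22ra2 by 0.15 ± 0.19 and -0.51 ± 0.42. Il20ra and Il20rb differed by -0.04 ± 0.23 and 0.26 ± 0.17.

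Downstream of the receptor, genes of both feedback inhibitors rose, and neither kinase gene passed. Of the 9 genes measured of the 10 listed, 4 rose and none fell for the averaged PGN effect, against 4.86% higher and 6.4% lower over all genes, with a median log2 difference of 0.39 against 0.05. Socs3, a feedback inhibitor that STAT3 induces, rose by 2.42 ± 0.29 (limma adjusted p = 0.00141). It had 8358 and 6890 in NOD.Idd3 with PGN, against 1745 and 2257 unstimulated, and 10688 and 10037 in NOD with PGN, against 2270 and 841 unstimulated. The conditions did not overlap, but the share of all genes separated in this way was not counted. When every probe set was tested, all 3 of Socs3 passed, with differences of 2.42 to 4.29. On the probe set used, the smallest of these, the log2 increase was 1.94 ± 0.41 in NOD.Idd3 and 2.91 ± 0.41 in NOD. The difference of -0.97 ± 0.57 did not pass (adjusted p = 1.00). Socs1, a related inhibitor, rose by 1.32 ± 0.23, Stat5a by 1.16 ± 0.17 and Stat3 by 0.76 ± 0.16 (adjusted p = 0.016). The 2 probe sets of Stat5a both passed, with differences of 1.16 and 2.85. The call of Stat3 was lost when any of 4 arrays was left out (adjusted p up to 0.0675): replicate 2 of NOD.Idd3 or of NOD cells with PGN, or either replicate of unstimulated NOD.Idd3 cells. Only 1 of its 4 probe sets passed. The kinase genes Jak1 and Tyk2 differed by 0.39 ± 0.16 and 0.23 ± 0.19, Stat5b by 0.03 ± 0.14, and Btrc and Usp15, which encode a ubiquitin ligase subunit and a deubiquitinase, by 0.07 ± 0.19 and 0.04 ± 0.16. None of these 5 passed. Of the 6 probe sets of Usp15, 2 passed in the other direction. The only treatment was PGN, and the part of IL-10 in the changes of these signalling genes was not tested.

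The promoters of genes named above that had a clear change are shown because they belong to the steps around the cytokine: Socs3 downstream of the receptor, F3 as the class II receptor gene that changed most, and Mapkapk2 beside Il10. Each runs 5′ to 3′ on the strand of the gene, over 300 bases from 250 before to 50 after its start, from RefSeq on GRCm38.p6, and capitals mark motif matches. The motifs searched on both strands were TTCNNNGAA (STAT), TGANTCA (AP-1) and TGACG (the cyclic AMP response element core).
Socs3, chr11:117969317-117969616, minus strand: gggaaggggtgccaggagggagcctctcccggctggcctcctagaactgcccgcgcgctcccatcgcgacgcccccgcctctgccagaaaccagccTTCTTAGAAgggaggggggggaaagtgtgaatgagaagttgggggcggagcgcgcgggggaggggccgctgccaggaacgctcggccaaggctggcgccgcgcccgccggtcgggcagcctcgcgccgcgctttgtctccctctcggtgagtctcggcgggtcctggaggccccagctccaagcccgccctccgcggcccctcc
F3, chr3:121723287-121723586, plus strand: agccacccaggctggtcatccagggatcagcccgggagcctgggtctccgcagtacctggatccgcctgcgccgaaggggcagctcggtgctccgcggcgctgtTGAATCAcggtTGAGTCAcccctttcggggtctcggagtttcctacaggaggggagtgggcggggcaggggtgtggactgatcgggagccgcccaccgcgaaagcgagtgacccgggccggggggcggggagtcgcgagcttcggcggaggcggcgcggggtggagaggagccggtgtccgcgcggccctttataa
Mapkapk2, chr1:131097794-131098093, minus strand: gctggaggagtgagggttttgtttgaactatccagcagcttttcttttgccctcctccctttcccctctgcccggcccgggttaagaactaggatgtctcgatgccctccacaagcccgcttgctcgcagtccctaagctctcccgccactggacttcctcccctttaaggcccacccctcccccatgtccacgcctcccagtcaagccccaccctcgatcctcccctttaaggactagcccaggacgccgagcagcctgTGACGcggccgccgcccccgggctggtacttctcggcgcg

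Socs3 held 1 STAT match, which began 154 bases before the start. F3 held 2 AP-1 matches, which began 146 and 135 bases before it. Mapkapk2 held 1 match of the cyclic AMP element core, at base 11 of the gene. The matches did not overlap each other. Of 32817 promoter windows of this length, 8.29% held the STAT motif, 7.81% the AP-1 motif and 20.8% the cyclic AMP element core. A match describes the letters alone. The promoters of Il10, Il10ra and Il10rb were not used here.

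Genes known to be raised by IL-10 in macrophages rose or did not pass. Of 19 measured of the 20 listed, 8 rose and none fell for the averaged PGN effect, against 4.86% higher and 6.4% lower over all genes, with a median log2 difference of 0.62 against 0.05 over all genes. Sphk1, a sphingosine kinase gene, rose by 4.13 ± 0.32 (limma adjusted p = 0.000225), with 449 and 802 in NOD.Idd3 with PGN, against 21.0 and 24.8 unstimulated, and 247 and 621 in NOD with PGN, against 41.0 and 27.4 unstimulated. The conditions did not overlap for Sphk1, but the share of all genes separated in this way was not counted. Its other probe set rose by 1.39. Ddit4, an inhibitor of mTOR signalling, rose by 2.39 ± 0.21, and Il4ra, the alpha chain of the IL-4 receptor, by 1.66 ± 0.19. Arid5a, an RNA-binding protein gene, rose by 1.38 ± 0.24, Bcl3 by 1.20 ± 0.17, Nfil3 by 0.90 ± 0.17 and Dusp1, a MAP kinase phosphatase gene, by 0.74 ± 0.16. The call of Dusp1 held in 2 of the 8 fits without 1 array (adjusted p up to 0.0813), and those of the other 7 in all 8. Socs3 is the eighth. Those not past the threshold included the IL-1 receptor antagonist gene Il1rn (0.62 ± 0.19, adjusted p = 0.0739, and 0.0284 with the replicate block), Hmox1 (0.10 ± 0.16) and Cd163 (0.19 ± 0.28), a scavenger receptor gene. When every probe set was tested, 2 of 3 passed as increases for Il1rn, with differences up to 2.01. For Tnfrsf1b 1 of 2 did, with differences up to 2.12, as did 1 of 4 for Etv3 and 1 of 2 for Cebpb. The calls of these genes therefore depend on the probe set. As PGN was the only treatment, the part of IL-10 in the increases of this list was not tested.

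Within strains, 7 of the 19 rose in NOD.Idd3 and 4 in NOD, against 1.89% and 1.81% of all genes. Of these calls, only that of Sphk1 in NOD.Idd3 and that of Ddit4 in NOD held whichever array was left out. For the difference in response none of them passed. Il4ra rose by 2.11 ± 0.27 in NOD.Idd3 and 1.21 ± 0.27 in NOD, with a difference of 0.90 ± 0.38 (unadjusted p = 0.0416, adjusted p = 1.00). With the replicate block 12 genes rose for the averaged effect, in a fit in which 16.9% of all genes passed. Leaving out replicate 1 of unstimulated NOD also gave 12, and leaving out any other array 7 or 8.

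Known regulators of Il10 transcription and of its messenger RNA moved in both directions. Of 27 measured of the 33 listed, 10 rose, 4 fell and 13 did not pass for the averaged PGN effect, against 4.86% higher and 6.4% lower over all genes, with a median log2 difference of 0.13 against 0.05. Ptges, which encodes a synthase of prostaglandin E2, rose by 2.66 ± 0.31 (limma adjusted p = 0.00131). All 3 of its probe sets passed, with differences of 2.66 to 3.93, so the size depends on the probe set. The NF-kB subunit gene Rel rose by 1.82 ± 0.14 (adjusted p = 0.000265), with 2187 and 1880 in NOD.Idd3 with PGN, against 699 and 596 unstimulated, and 2831 and 2571 in NOD with PGN, against 685 and 683 unstimulated. Irf4, a transcription factor gene, rose by 1.67 ± 0.36, a call that held in 4 of the 8 fits without 1 array (adjusted p up to 0.0687). The largest difference on this list other than that of Ptges was the fall of Mapk14, which encodes the kinase p38 alpha that activates MK2. Mapk14 fell by 2.09 ± 0.22 on the log2 scale (adjusted p = 0.000981), with 1972 and 1231 in NOD.Idd3 with PGN, against 5810 and 5830 unstimulated, and 1511 and 895 in NOD with PGN, against 5024 and 6416 unstimulated. All 6 of its probe sets were lower with PGN and 5 passed.

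Other members of the list also passed. Maf, a transcription factor gene known to drive Il10, fell by 0.86 ± 0.20 (adjusted p = 0.0248), and 4 of its 6 probe sets passed in that direction. Sik2 fell by 0.74 ± 0.15 and Sik3, its relative, rose by 0.63 ± 0.13, both salt-inducible kinases that restrain CREB coactivators. Other increases were those of Nfil3 (0.90), Map3k8 (1.11), Prdm1 (0.73), Bhlhe40 (0.68), Crem (0.64) and Mapkapk2. Gsk3b fell by 0.58 ± 0.16. Creb1 and Ahr differed by -0.28 ± 0.16 and -0.05 ± 0.15 and did not pass. The list's count of 14 was 6 without replicate 1 or 2 of unstimulated NOD.Idd3 or replicate 2 of PGN-treated NOD.Idd3, 8 without replicate 2 of PGN-treated NOD, 9 without replicate 1 of PGN-treated NOD.Idd3, replicate 1 of PGN-treated NOD or replicate 2 of unstimulated NOD. It was 13 when replicate 1 of unstimulated NOD was left out. The genes Rel, Ptges, Mapk14, Mapkapk2 and Nfil3 passed without each of the 8 arrays in turn, Sik2 in 7 of these 8 fits, Sik3 in 4, Bhlhe40 in 3, Maf and Map3k8 in 2, Crem and Prdm1 in 1 and Gsk3b in none.

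**Figure D4:**
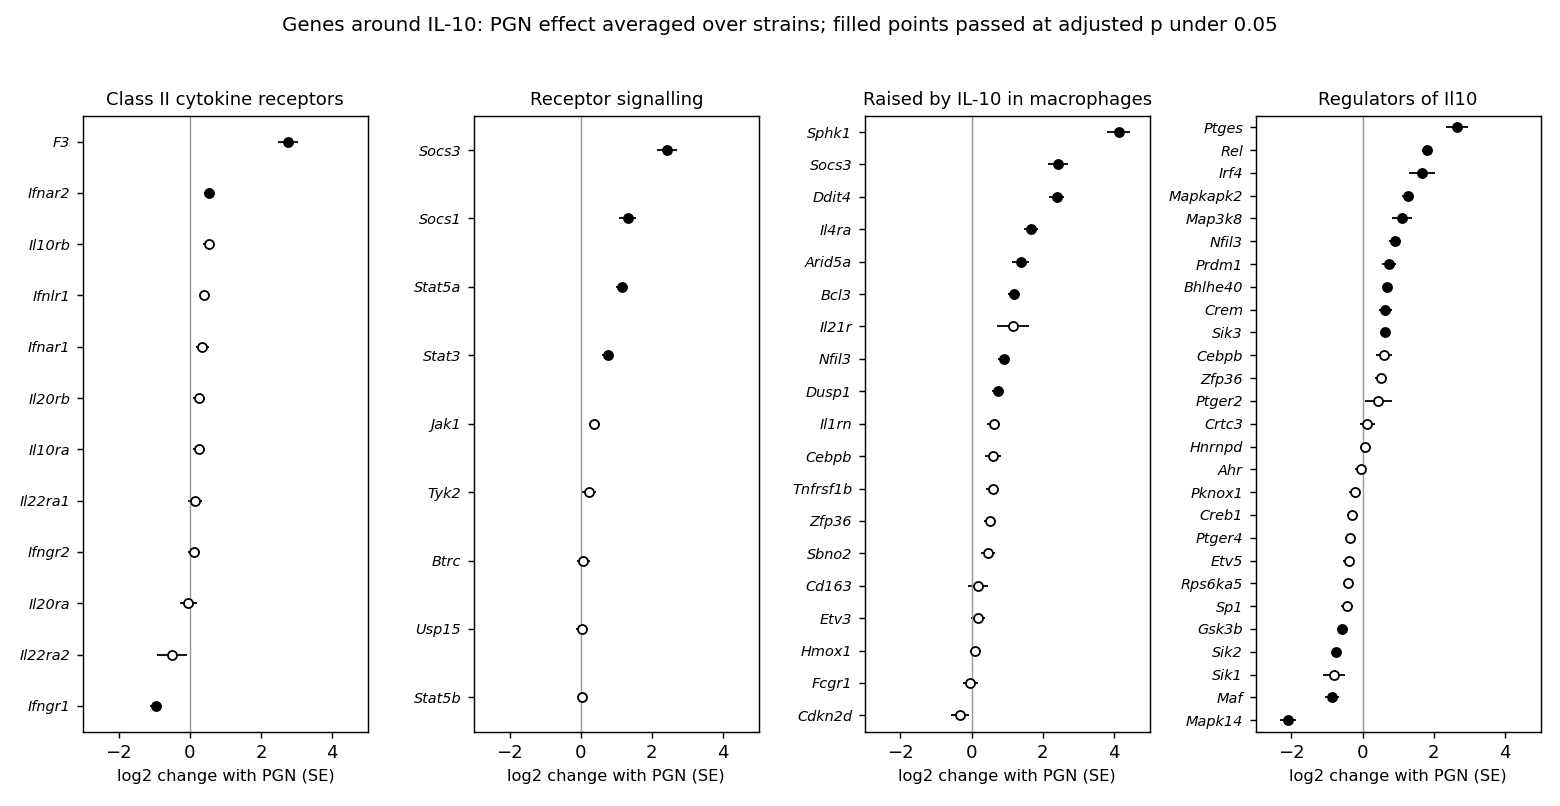
Log2 change with PGN averaged over strains (± SE, limma, 4 arrays per condition) for the class II cytokine receptors, genes of receptor signalling, genes raised by IL-10 in macrophages and regulators of Il10. Filled points passed at an adjusted p under 0.05. Socs3 (2.42), Sphk1 (4.13), F3 (2.75) and Ptges (2.66) lead their panels, and Mapk14 (-2.09) has the largest fall.

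The genes most like Il10 over the arrays were picked by distance. Likeness was the mean absolute difference between 2 genes' log2 values over the 8 arrays after each gene's own mean was taken off, and is a description. Csf3, the gene of the neutrophil growth factor G-CSF, was nearest at 0.30, followed by U90926 (0.50), Il1f6 (0.61), an IL-1 family cytokine gene, Cyp1b1 (0.72), a cytochrome P450 gene, and Ptx3 (0.83), a pentraxin gene. No gene came within 0.2 of Il10. Near the receptor genes there were more: 4157 genes came within 0.2 of Il10ra and 888 within 0.2 of Il10rb. The measure is not scaled to the size of a gene's change, so a gene that changes little lies near many others. These counts therefore say little about the profiles. Nae1 (0.05) and Mapre2 (0.05) were nearest to Il10ra, then Ankhd1, Atf4 and Dmxl2. Rnf149 (0.06) and Mefv (0.08), the gene of the inflammasome protein pyrin, were nearest to Il10rb, then Zdhhc18, Asprv1 and Riok3.

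**Figure D5:**
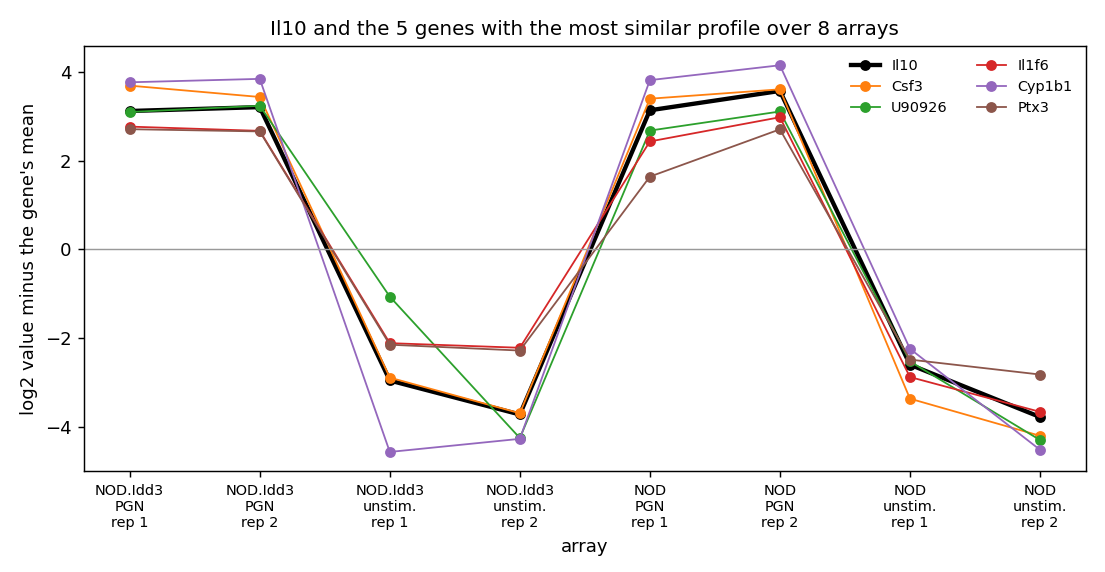
Log2 values of Il10 and of the 5 genes most like it on each of the 8 arrays, after the gene's own mean is taken off; lines join the arrays of a gene and carry no order. Csf3 stays nearest to Il10, with a mean absolute difference of 0.30.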

How the data were processed

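Expression was measured in 8 samples on single-channel arrays, with 2 arrays in each of the 4 groups, which were taken with their replicate numbers from the sample labels. The labels name biological replicates but not animals or pools, and p-values therefore reflect the spread between these arrays alone. Values were deposited as linear intensity (3.97 to 42906), 1 for each probe set on each array. RMA, which usually gives background-corrected, quantile-normalized log2 summaries, is named per the submitters' processing notes, with no version. The deposited values were not equally distributed on the 8 arrays. Their upper quartiles were 275.6 to 336.9 and their maxima 25750 to 42906. Which steps of RMA had been applied was not tested. The log2 of each value was taken, with no further normalization or filter. Of 45101 probe sets, 64 controls, 9160 without a symbol and 932 with several were left out. Symbols came from the platform annotation, updated through the RefSeq table of GRCm38.p6 (34741 of 34945 probe sets matched). Each gene was read at its probe set with the highest mean, which left 18193 genes.

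Contrasts of the 4 group means were tested by lmFit and eBayes (limma 3.58.1, R 4.3.3; 4 residual and 4.69 prior degrees of freedom), with Benjamini-Hochberg adjustment over all genes, and passed under 0.05. The fit was also run on simulated data with known changes. Its noise was independent between arrays, so it cannot show how the fit behaves when replicates share differences. Replicate numbers could pair the arrays, since replicate 1 arrays carry a shared date in their names in the labels. Replicate differences were correlated across genes at r = 0.17 to 0.42 in the 6 group pairs, so the numbers were taken as pairing. The main fit held no replicate block, so its SEs, intervals and p-values leave the pairing out. The fit with the replicate block was an alternative, in which 3082 genes passed for the averaged PGN effect, against 2049. The other alternatives were the RR1 suffix of array names as a term, a variance trend, removal of genes under the 40th percentile, the mean of a gene's probe sets, a test of every probe set, leaving out probe sets with the suffix _x_at or _s_at, a further quantile normalization, a pseudocount of 16, leaving out each array, and only the 4 arrays compared. Genes named were the 3 members, the lists of the IL-10 family, class II receptors and receptor signalling, the leading members of the other lists, neighbours and the 5 most like genes; further members of the last lists were named after their values were seen. The members, lists and tests were chosen with earlier results of these data known. The number of arrays limits the precision.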

Additional observations from a re-analysis of the deposited data

How the results depend on the processing

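Il10 passed with PGN in both strains and on average under every alternative run, with averaged increases of 6.21 (pseudocount of 16) to 6.81 on the log2 scale. The averaged PGN effect passed for Il10rb with the replicate block and with a variance trend (0.53 in each) and for Il10ra with the mean of its probe sets (0.56), and no other call of the 3 genes on the probe set used changed with the replicate block or another alternative. When every probe set was tested, the second probe set of Il10ra passed on average (1.00) and in NOD.Idd3 (1.12). Estimates near 0 changed sign. The difference in response of Il10 was 0.054 after a further quantile normalization and -0.63 to 0.55 without 1 array, and that of Il10ra was -0.020 with the RR1 term, -0.019 after quantile normalization and -0.15 to 0.17 without 1 array. The strain difference of Il10 without 1 array was -0.41 to 0.027 with PGN, -0.74 to 0.44 unstimulated and -0.46 to 0.12 averaged. Counts over all genes moved more. In NOD.Idd3, 572 genes passed for PGN, against 1207 with the replicate block, 235 with the RR1 term, 1058 over all probe sets, which number more than the genes, and 56 to 624 without 1 array. In NOD 717 passed, against 1586 with the block, 1403 over probe sets, 416 with only the 4 arrays compared and 77 to 876 without 1 array. Averaged over strains 2049 passed, against 3082 with the block, 3933 over probe sets and 1111 to 2139 without 1 array. The averaged strain difference had 0 genes and 27 with the block. The cause was not tested. With 2 arrays per group and unstimulated Il10 in the middle of the array's distribution, its fold is known for the deposited intensities alone.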
